A study of Mus musculus with 6 samples.

Results

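The genes described here carry the interleukin-3 signal from its receptor to the nucleus through STAT5, together with genes that STAT5 is known to switch on. There are 10 of them among 54532 genes in the count table, chosen by name: the kinase gene Jak2, the transcription factor genes Stat5a and Stat5b, the feedback inhibitor genes Cish, Socs1, Socs2 and Socs3, the kinase genes Pim1 and Pim2, and Id1. Each matched 1 row of the table, and all 10 had enough counts to be tested. They were measured by sequencing of messenger RNA from 32D cells, a myeloblast-like mouse line grown with 5 ng/ml of mouse interleukin-3 and 10% serum. Cells of the S34F group (3 libraries) received human U2AF1 with the S34F substitution from a retrovirus that also encodes GFP, and cells of the WT group (3 libraries) received wild-type human U2AF1 from the same vector. U2AF1 is a splicing factor that recognises the 3' end of introns, and S34F is a substitution found in myeloid malignancies. The labels describe no change to the mouse U2af1 gene in either group, and they state neither whether GFP-positive cells were sorted nor whether a line is 1 clone. All 6 libraries therefore carry a human U2AF1 construct, and no untransduced cells are compared. Whether replicates are separate cultures is not stated, and the p-values reflect only how these 3 libraries per group scatter, which may in part be technical scatter. Values per library are given below in the order of replicates 1, 2 and 3.

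When interleukin-3 binds its receptor on a myeloid cell, the kinase JAK2 held by the receptor's beta chain phosphorylates the receptor and then STAT5A and STAT5B. The phosphorylated STAT5 proteins pair up, enter the nucleus and bind sites of the form TTCNNNGAA. Among the genes they induce are Cish and the Socs genes, whose proteins act back on the receptor and on JAK kinases, and the Pim kinase genes, which favour survival and growth. The phosphorylation itself is not visible in RNA counts, so levels of the target genes and of the pathway's own messages are what these data hold.

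Promoter windows of 300 bases (250 before and 50 after a RefSeq start, build GRCm38.p6, which is mm10) were on hand for 8 of the 10 genes, 11 windows in all. Socs2 and Id1 had none. The pattern TTCNNNGAA, which reads the same on both strands, was found in the windows of Cish (2 matches) and Socs3 (1 match) and in no window of Jak2, Stat5a, Stat5b, Socs1, Pim1 or Pim2. Of 32851 mouse windows of this length, 8.3% held at least 1 match and 0.457% held 2 or more. The first 280 bases of the Cish and Socs3 windows are shown because they hold these matches, 5' to 3' on the gene's strand, in lower case with each TTCNNNGAA match in capitals. Cish lies at chr9:107296409-107296688 on the plus strand, and Socs3 at chr11:117969337-117969616 on the minus strand.
Cish: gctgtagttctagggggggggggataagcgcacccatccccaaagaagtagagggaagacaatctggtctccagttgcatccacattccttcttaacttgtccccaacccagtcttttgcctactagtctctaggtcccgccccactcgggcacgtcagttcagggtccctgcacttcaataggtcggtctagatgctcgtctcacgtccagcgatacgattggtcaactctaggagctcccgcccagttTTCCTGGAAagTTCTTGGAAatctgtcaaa
Socs3: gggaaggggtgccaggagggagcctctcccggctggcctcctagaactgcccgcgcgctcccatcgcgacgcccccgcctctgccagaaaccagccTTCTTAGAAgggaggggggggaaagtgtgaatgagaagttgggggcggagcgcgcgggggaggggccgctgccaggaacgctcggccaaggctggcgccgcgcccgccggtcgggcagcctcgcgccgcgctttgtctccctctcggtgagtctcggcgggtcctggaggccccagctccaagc
The Cish matches, TTCCTGGAA and TTCTTGGAA, begin at bases 251 and 262 of the window, where base 251 is the annotated start. The Socs3 match, TTCTTAGAA, begins at base 97, upstream of the annotated start. A match describes these letters only, and binding was not measured.

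Library totals lay between 16509899 and 19129250 counts, and 1 count corresponded to 0.052 to 0.0608 CPM, counts scaled for depth and composition (TMM). Mitochondrial transcripts took 2.02% to 2.14% of counts in S34F and 2.73% to 2.98% in WT, and the part of this difference in the results below was not tested. The closest libraries by far were WT replicates 2 and 3. Beyond counting noise their coefficient of variation was 3.16%, and for the other within-group pairs it was 16.5% to 21.5%. A chi-square of their counts gave 2.3 per degree of freedom (24.7 to 39.8 for the same other pairs), more than sampling alone gives. They were therefore kept as separate libraries, though this does not show that they are separate cultures. Results are also given with both summed. WT replicate 1 stood apart from WT replicates 2 and 3, with coefficients of variation of 21.5% and 21.4%. It was about as close to S34F replicate 1 (21.7%) and less close to S34F replicates 2 and 3 (24.2% and 22.9%). Its chi-square per degree of freedom was 36.2 with S34F replicate 1, beside 38.4 and 39.8 with WT replicates 2 and 3. U2af1 was counted at 91.9, 57.3 and 91.7 CPM in S34F and 97.9, 58.6 and 56.9 CPM in WT. Here too WT replicate 1 stood apart from WT replicates 2 and 3. The U2af1 values do not check the labels, because gene counts do not show the allele. Whether reads of the human construct were counted for this mouse gene was not tested. Of the myeloid progenitor markers Mpo, Elane, Prtn3, Ctsg, Kit, Cd34, Spi1, Cebpa and Myb, 5 of 9 could be tested. No source used here gives the counting settings, so a gene without counts, here and below, is one listed at 0 and not one shown to be silent. Cebpa had no counts in any library, Kit had 3 counts in WT replicate 2 alone, and Elane and Cd34 had at most 6 and 8 counts in a library. Ctsg, Spi1 and Myb were each above 100 CPM in every library, Prtn3 lay between 22.3 and 51.7 CPM, and Mpo between 2.99 and 15.8 CPM.

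None of the 10 genes passed the test between S34F and WT. Pim1 and Id1 were the only members whose S34F libraries all lay above the WT libraries. They stood at 1.6-fold and 1.87-fold the WT level, and adjusted p-values were 0.103 and 0.0543. Pim2 was at 1.71-fold with groups that overlapped. For Jak2, Stat5a, Stat5b, Cish, Socs1, Socs2 and Socs3 the fold lay between 0.813 and 1.02, and the groups overlapped. The edgeR quasi-likelihood test with Benjamini-Hochberg adjustment over 13444 genes called 0 of the 10, where it called 2.18% of all genes. Before adjustment 2 of 10 had a p under 0.05, as had 22% of the table, and 2 of 10, both higher in S34F, did not overlap between groups, as for 27.1% of the table (14% higher and 13.1% lower). DESeq2 called 2 of the 10, Pim1 and Id1 (8.64% of all genes), as did edgeR without a count filter (3.12%), and limma-voom called 0 (2.01%). With WT replicates 2 and 3 summed, edgeR called 0 of the 10 and 0.145% of all genes. The members' median log2 fold change was -0.04, beside 0.00052 over all genes tested. The shares of the main fit do not set the 10 genes apart from the rest of the table. The 2 calls by DESeq2 and without a count filter are a larger share than that of all genes, but rest on 2 genes. The unfiltered share is taken over 24480 genes, which include the sparsely counted ones that the filter removes.

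**Figure D1:**
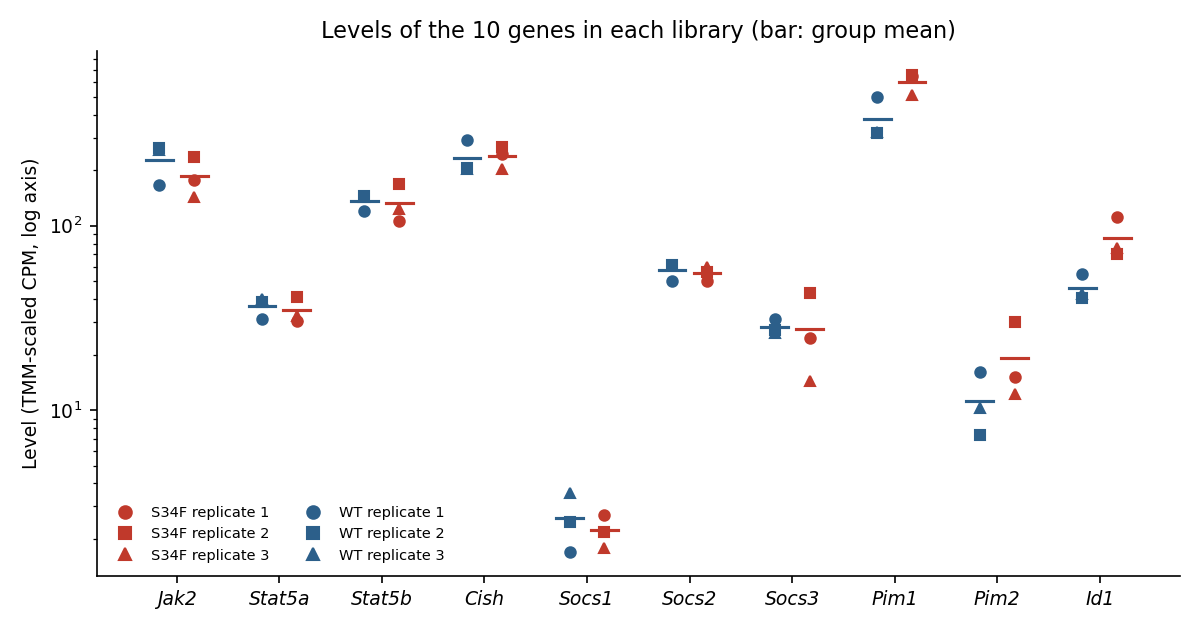
Levels of the 10 genes in each library, in TMM-scaled CPM on a log axis, with WT in blue, S34F in red, a marker shape per replicate number and a bar at each group mean. For Pim1 the lowest S34F library (510 CPM) lies just above the highest WT library (496 CPM), for Id1 the gap is wider (70.5 against 54.6 CPM), and the groups of the other 8 genes overlap.

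Jak2 encodes the kinase that starts the cascade (ENSMUSG00000024789, chromosome 19, 29251828 to 29313080, mm10). Its level was 177, 237 and 143 CPM in S34F and 165, 263 and 257 CPM in WT. WT replicate 1 lay within the S34F range, and only WT replicates 2 and 3 were above all S34F libraries. The log2 fold change was -0.30 ± 0.22 (SE, n = 3 per group, edgeR adjusted p = 0.464), with a 95% interval from -0.80 to 0.21.

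Stat5a and Stat5b lie next to each other on chromosome 11 (Stat5a, ENSMUSG00000004043, 100859351 to 100885169; Stat5b, ENSMUSG00000020919, 100780731 to 100850724) and encode closely related proteins. Reads from stretches that the 2 genes share could be assigned to either, and the counting rule for such reads is not stated in the labels. Stat5a was counted at 30.4, 41.2 and 32.5 CPM in S34F and 31.2, 38.8 and 40.3 CPM in WT. Stat5b was counted at 106, 169 and 124 CPM in S34F and at 121, 145 and 142 CPM in WT. In both genes S34F replicate 2 was the highest library and S34F replicate 1 the lowest. The log2 fold changes were -0.08 ± 0.16 for Stat5a and -0.03 ± 0.17 for Stat5b (SE, n = 3 per group, edgeR adjusted p = 0.805 and 0.934). The 95% intervals of the fold ran from 0.734 to 1.22 for Stat5a and from 0.745 to 1.28 for Stat5b in the main fit. Neither a rise nor a fall as large as 1.5-fold lies inside these intervals, which were computed for that fit alone. Over all settings the log2 fold change ran from -0.25 (GC offsets) to -0.00046 for Stat5a. For Stat5b it ran from -0.24 (without S34F replicate 2) to 0.098 (without S34F replicate 1).

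The balance of the 2 messages was much the same in every library. Stat5a made up 22.2%, 19.6% and 20.8% of the counts of both genes in S34F and 20.5%, 21.1% and 22.1% in WT. The Wilson 95% intervals, which cover counting error only, were no wider than from 18.4% to 23.9% over all 6 libraries. The group means were 20.9% ± 1.30 and 21.2% ± 0.761 (SD, n = 3 per group), and an exact two-sided permutation test gave p = 0.8, where 0.1 is the smallest p this design allows. Per kilobase of the principal transcript, Stat5b stood at 25.8 CPM and Stat5a at 9.19 CPM over all libraries.

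Cish, a cytokine-inducible inhibitor and a binding partner of activated receptors, was the most abundant of the feedback genes (ENSMUSG00000032578, chromosome 9, 107296026 to 107302784). Its level was 244, 268 and 202 CPM in S34F and 292, 205 and 204 CPM in WT. The highest library was WT replicate 1, and S34F replicate 3 lay beside WT replicates 2 and 3. The groups differed by 0.03 ± 0.17 on the log2 scale (SE, edgeR adjusted p = 0.945, n = 3 per group), and the 95% interval of the fold ran from 0.779 to 1.33. Its sign turned with the setting: it was 0.22 without WT replicate 1 and -0.06 without WT replicate 2, neither past the test.

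Socs2, which restrains growth hormone and cytokine receptor signalling, was the steadiest member (ENSMUSG00000020027, chromosome 10, 95385362 to 95417180). It was counted at 50.4, 56.3 and 59.6 CPM in S34F and 50.2, 61.1 and 61.2 CPM in WT. Replicate 1 was the lowest library of each group. The log2 fold change was -0.05 ± 0.13 (SE, n = 3 per group, edgeR adjusted p = 0.842), and the 95% interval of the fold, from 0.791 to 1.17, was the narrowest of the 10.

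Socs3, an inhibitor of JAK kinases that many cytokines induce, was the most uneven of the feedback genes within the S34F group (ENSMUSG00000053113, chromosome 11, 117966079 to 117970047). Its level was 24.7, 43.1 and 14.4 CPM in S34F and 31.3, 27.3 and 26.1 CPM in WT. The WT libraries all fell inside the range that the S34F libraries spanned. Group means were 27.4 ± 14.5 and 28.2 ± 2.74 CPM (SD, n = 3), and the log2 difference was -0.04 ± 0.33 (SE, edgeR adjusted p = 0.956). Leaving out S34F replicate 2 gave -0.53, and leaving out S34F replicate 3 gave 0.26.

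Socs1, a direct inhibitor of the JAK catalytic domain, was near the lower limit of these libraries (ENSMUSG00000038037, chromosome 16, 10782240 to 10785536). It had 48, 42 and 30 counts in S34F and 28, 42 and 66 counts in WT, or 1.79 to 2.71 and 1.70 to 3.57 CPM. The WT libraries spanned the S34F libraries. Its log2 fold change was -0.22 ± 0.34 (SE, n = 3 per group, edgeR adjusted p = 0.756), and the 95% interval of the fold, from 0.502 to 1.48, shows how little these counts could resolve.

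Pim1 encodes a constitutively active serine/threonine kinase whose message and protein are short-lived, and it was the most abundant of the 10 genes (ENSMUSG00000024014, chromosome 17, 29490753 to 29496112). It was counted at 646, 660 and 510 CPM in S34F and 496, 317 and 323 CPM in WT. Every S34F library was above every WT library, but S34F replicate 3 and WT replicate 1 were almost level. Group means were 605 ± 82.8 and 379 ± 102 CPM (SD, n = 3). The log2 fold change was 0.68 ± 0.19 (SE) with a 95% interval from 0.24 to 1.12, an unadjusted p of 0.00717 and an edgeR adjusted p of 0.103. The value rested on WT replicates 2 and 3. It was 0.92 without WT replicate 1 (adjusted p = 0.0188, in a fit that called 8.51% of all genes) and 0.57 with WT replicates 2 and 3 summed into 1 library (adjusted p = 0.332). The noncoding gene Gm26885 covers 14.5% of the exon bases of Pim1 on the opposite strand, and it had at most 7 counts in a library.

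Pim2, a kinase related to Pim1 with a similar survival role, was at a much lower level (ENSMUSG00000031155, X chromosome, 7878262 to 7883432). Its level was 15.1, 30.1 and 12.2 CPM in S34F and 16.0, 7.36 and 10.3 CPM in WT. WT replicate 1 was above S34F replicates 1 and 3, so the groups overlapped. Over the groups the log2 fold change was 0.77 ± 0.38 (SE, n = 3 per group, edgeR adjusted p = 0.271), and it was 0.29 without S34F replicate 2. Pim1 gave 42.7, 22.0 and 41.7 counts for each Pim2 count in S34F and 31.0, 43.1 and 31.3 in WT (exact two-sided permutation p = 0.8, n = 3 per group).

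Id1 encodes an inhibitor of basic helix-loop-helix transcription factors that interleukin-3 induces through STAT5 and that BMP signalling induces through SMAD proteins (ENSMUSG00000042745, chromosome 2, 152736251 to 152737410). It was counted at 111, 70.5 and 75.7 CPM in S34F and 54.6, 40.5 and 42.4 CPM in WT. All S34F libraries lay above all WT libraries, and replicate 1 was the highest of each group. Group means were 85.7 ± 21.9 and 45.8 ± 7.65 CPM (SD, n = 3). The log2 fold change was 0.90 ± 0.19 (SE) with a 95% interval from 0.46 to 1.34, an unadjusted p of 0.00128 and an edgeR adjusted p of 0.0543. Without WT replicate 1 it was 1.05 (adjusted p = 0.0278) and without S34F replicate 2 it was 1.03 (adjusted p = 0.0485, in a fit that called 2.46% of all genes). Without S34F replicate 1 it was 0.66 (adjusted p = 0.157), and with WT replicates 2 and 3 summed it was 0.84 (adjusted p = 0.216).

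**Figure D2:**
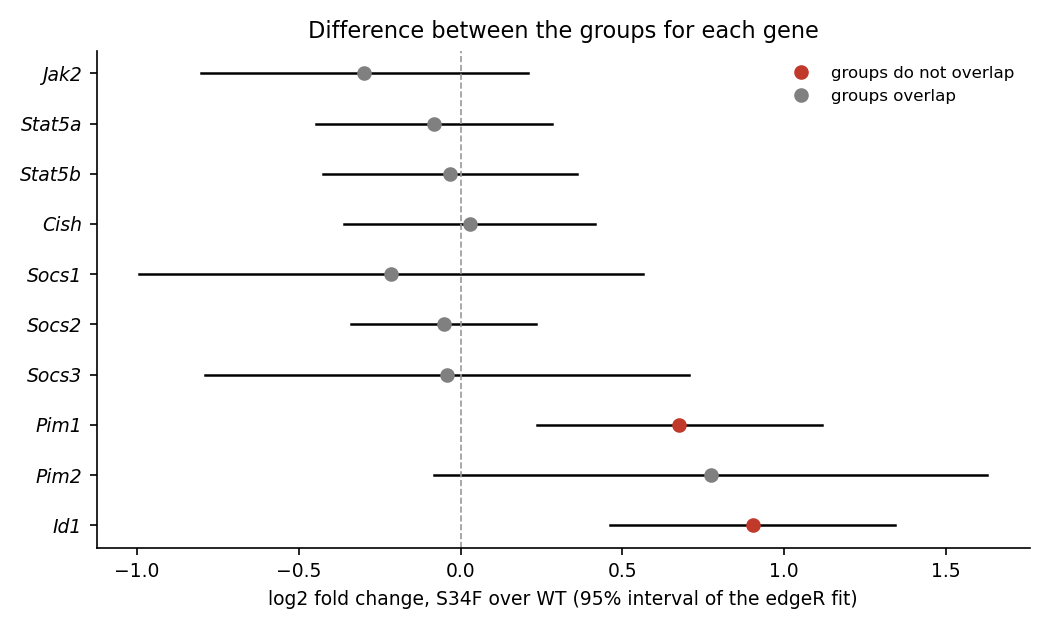
Log2 fold change of S34F over WT for each gene with its 95% interval from the edgeR fit; red points mark genes whose groups do not overlap. The intervals of Pim1 (0.24 to 1.12) and Id1 (0.46 to 1.34) lie above 0 before adjustment over all genes, and the other 8 intervals include 0.

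Ratios of counts within a library, which need no scaling factor, describe the targets relative to each other. The Pim1 and Id1 ratios to Cish were chosen after the levels were seen and restate them. There were 2.65, 2.46 and 2.52 Pim1 counts for each Cish count in S34F and 1.70, 1.55 and 1.59 in WT. The ratio varied little inside a group and did not overlap between groups (2.55 ± 0.0956 and 1.61 ± 0.0811, SD, n = 3 per group). For Id1 there were 0.455, 0.263 and 0.374 counts for each Cish count in S34F and 0.187, 0.197 and 0.208 in WT. An exact two-sided permutation test gave p = 0.1 for each of these ratios, the smallest this design allows, and 0.2 after adjustment over the 4 within-library quantities tested. Neither p-value accounts for the choice of these ratios after the levels were seen, so no conclusion is drawn from them.

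Immediate-early genes, switched on quickly by serum, handling and stress, varied between the libraries as Pim1 did in part. The summed level of 14 immediate-early and heat-shock genes was 1029, 1364 and 701 CPM in S34F and 997, 422 and 441 CPM in WT. WT replicate 1, the WT library with the highest Pim1, Pim2, Socs3, Cish and Id1, was thus close to S34F replicate 1. Jun and Atf3 had no counts in any library. The heat-shock genes Hspa1a and Hspa1b had at most 2 counts in a library and were not tested, so the sum does not describe a heat-shock response. The part of the listed genes in the values of Pim1 and Id1 was not tested. Of the 10 that could be tested, Klf6, a zinc finger factor, and Jund, a subunit of AP-1, rose 2.13-fold and 1.74-fold (edgeR adjusted p = 0.0387 and 0.0492). Klf6 lost its call in 6 of 17 alternatives and Jund in 10, among them the sum of WT replicates 2 and 3 (adjusted p = 0.142 and 0.192). The other 8 did not pass. Beside 2.18% called and 27.1% without overlap over all genes, 2 of the 10 were called and 2 did not overlap, and the median log2 fold change was 0.86.

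**Figure D3:**
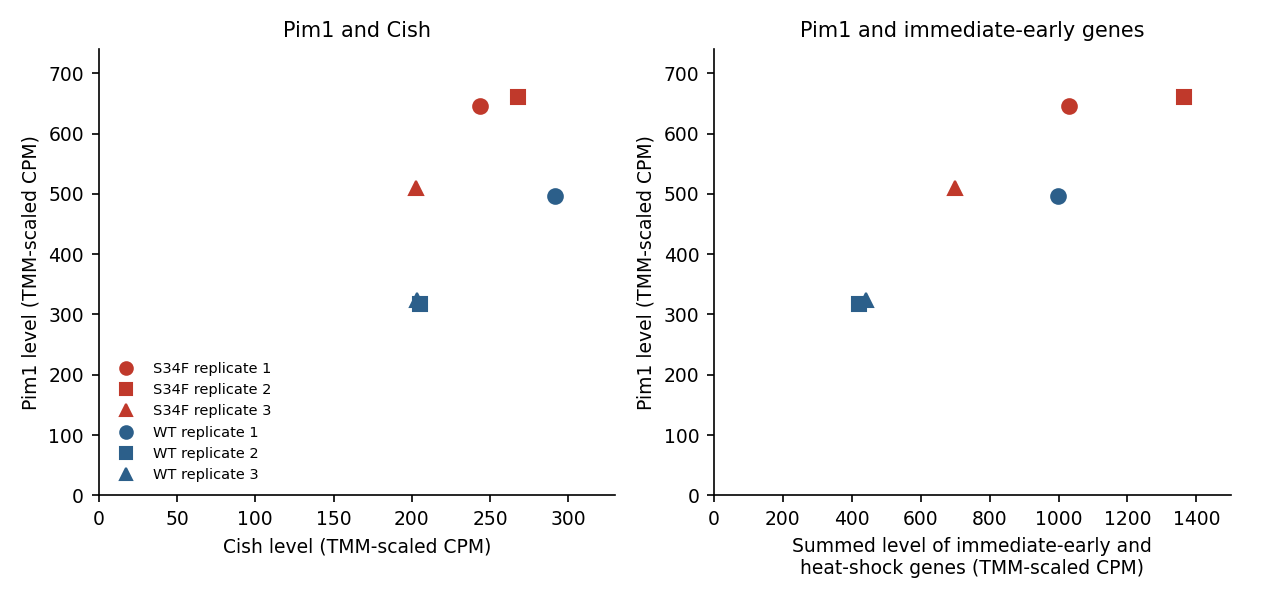
Pim1 level in each library against the Cish level (left) and against the summed level of 14 immediate-early and heat-shock genes (right), all in TMM-scaled CPM. At a like Cish level of 202 to 205 CPM, S34F replicate 3 has 510 CPM of Pim1 and WT replicates 2 and 3 have 317 and 323 CPM; WT replicate 1 lies with the S34F libraries on the right.

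Levels of the 10 genes can be ordered per kilobase of principal transcript. Pim1 stood at 182 CPM per kilobase, followed by Cish at 82.7, Id1 at 70.4, Jak2 at 41.1, Stat5b at 25.8, Socs2 at 25.4, Pim2 at 13.6, Socs3 at 10.9, Stat5a at 9.19 and Socs1 at 0.827. Of the 9 neighbouring pairs in this order, 2 were apart in all libraries, namely Pim1 above Cish and Stat5a above Socs1. The ranges of the other 7 pairs overlapped over the 6 libraries. Divided by all annotated exon bases instead, Cish stood at 36.7 CPM per kilobase, below Id1 at 56.7 and Jak2 at 41.1, so its place depends on the gene model.

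Single libraries set the sign of several members. With each library left out in turn, Pim1 kept a log2 fold change between 0.56 and 0.92, Id1 between 0.66 and 1.05 and Pim2 between 0.29 and 1.12. Jak2 stayed negative, between -0.51 and -0.14. The values of Stat5b, Cish, Socs1, Socs2 and Socs3 lay on both sides of 0. None of these 5 passed the test in any of the 17 alternatives.

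**Figure D4:**
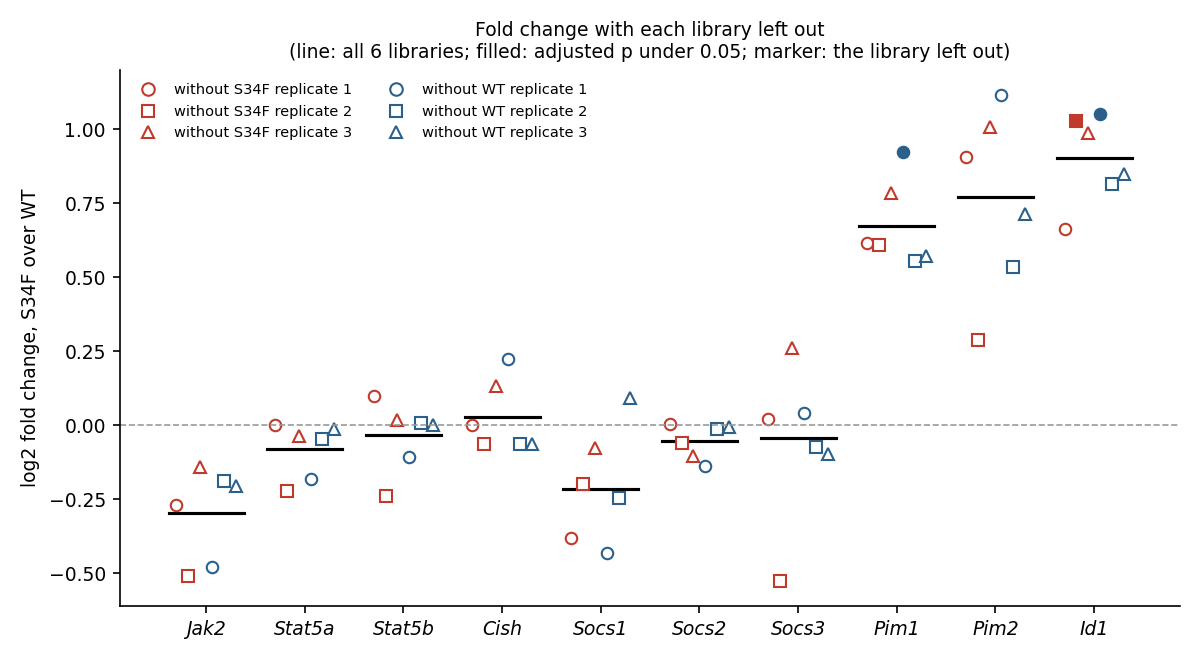
Log2 fold change of each gene with 1 library left out (markers, by the library left out) beside the value from all 6 libraries (line); filled markers have an adjusted p under 0.05. Only Pim1 without WT replicate 1 (0.92) and Id1 without WT replicate 1 (1.05) or without S34F replicate 2 (1.03) are filled.

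In the 5 other pathway lists, apart from immediate-early genes, edgeR called 0 of 57 genes tested, where it called 2.18% of the table. Before adjustment 10 had a p under 0.05 (22% of the table), and the calls were 4 by DESeq2 (8.64%) and 1 by limma-voom (2.01%). These counts do not set the lists apart from all genes, and neither do the counts without overlap given below, beside 27.1% of the table. Upstream, the list of receptor chains, other JAK kinases and other STATs had a median of 0.24 on the log2 scale over 9 genes, 2 of which did not overlap. The gene Il3ra, for the chain that binds interleukin-3, was at 90.7, 91.7 and 85.9 CPM in S34F and 62.8, 68.9 and 64.0 CPM in WT. The S34F libraries were all higher, at 1.37-fold, with an edgeR adjusted p of 0.0585. That adjusted p ran from 0.0101 to 0.257 over the 17 alternatives and passed in 3 of them. With GC offsets the log2 fold change was 0.26, down from 0.46 (adjusted p = 0.233). The signalling chains that bind JAK2 are encoded by Csf2rb and Csf2rb2, chosen here after their values were seen. Csf2rb had 575 to 831 CPM in S34F and 570 to 634 CPM in WT (log2 fold change 0.28 ± 0.15, SE, edgeR adjusted p = 0.308). Csf2rb2 had 426 to 660 CPM in S34F and 440 to 466 CPM in WT (log2 fold change 0.28 ± 0.16, SE, edgeR adjusted p = 0.335).

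Other restraints on the pathway, 15 phosphatases, PIAS proteins, Cbl ligases and further Socs genes, had a median of 0.09 on the log2 scale, and 3 did not overlap between groups. The member with the smallest p was Pias2, at 0.818-fold the WT level (edgeR adjusted p = 0.168). In the RAS-MAPK and PI3K branches (16 genes, median 0.05, 2 not overlapping) it was the adaptor gene Shc1, at 1.32-fold (adjusted p = 0.109, and 0.0299 to 0.393 over the alternatives, past the test in 2). Among other ID genes and BMP-SMAD genes (6 of 10 tested, median -0.33, 1 not overlapping) it was Id2 at 1.38-fold (adjusted p = 0.208), while Id3, Id4, Smad6 and Bmpr1a had no counts in any library.

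Of 13 other genes described as STAT5 targets, 11 could be tested, with a median log2 fold change of 0.11. The 3 that did not overlap between groups, a share of the list near that of the table (27.1%), are named here, Bcl2l1 and Il2ra after their values were seen. Cdkn1a, a cell cycle inhibitor that is also a target of p53, was at 299, 302 and 282 CPM in S34F and 225, 165 and 164 CPM in WT. That was 1.59-fold, with an edgeR adjusted p of 0.0532. Over the alternatives it ran from 0.00181 to 0.245, and 6 of 17 passed; it was 0.0104 without WT replicate 1 and 0.231 with WT replicates 2 and 3 summed. Bcl2l1, which encodes the survival protein BCL-XL, was at 1.48-fold (adjusted p = 0.0695). Il2ra, the interleukin-2 receptor alpha chain gene, lay lower in every S34F library, at 13.4, 5.20 and 6.15 CPM against 30.6, 17.7 and 21.1 CPM (log2 fold change -1.49 ± 0.36, SE, adjusted p = 0.0725). Pim3 and Ccnd1 had at most 9 counts in a library and were not tested.

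**Figure D5:**
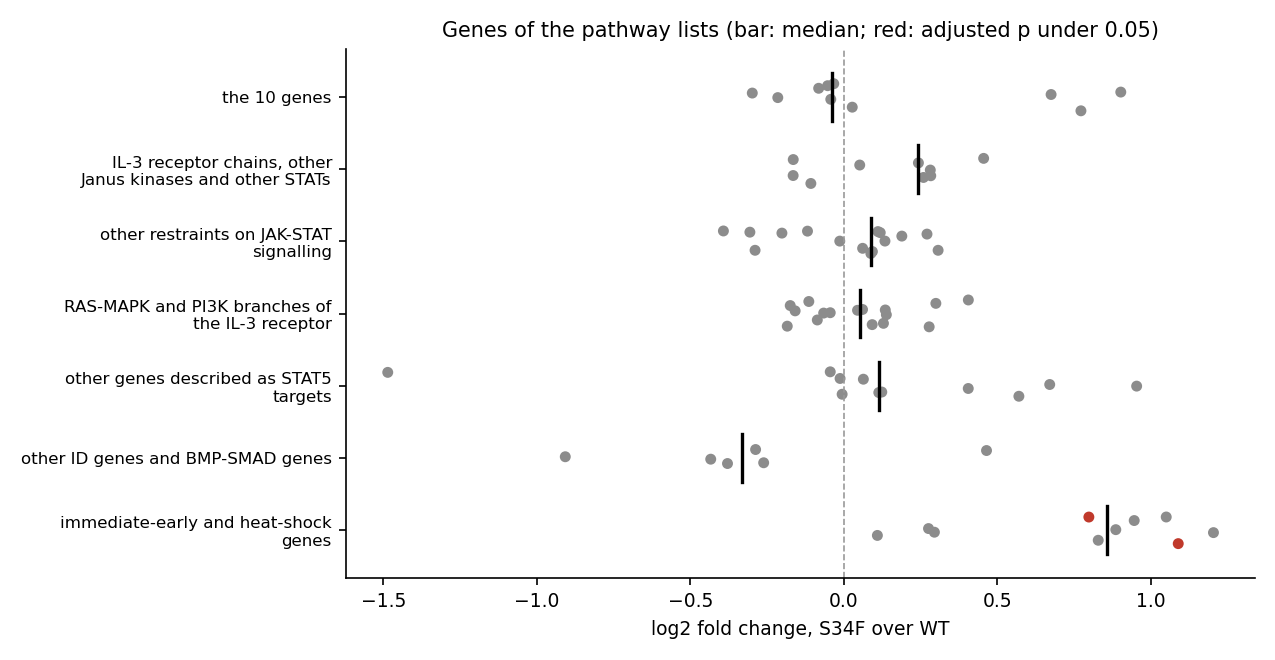
Log2 fold change of S34F over WT for the 10 genes and for the tested genes of 6 further pathway lists (points, shifted vertically at random), with a bar at each median; red points passed the test. The only red points are Klf6 and Jund among the immediate-early genes, and the medians of the other further lists lie between -0.33 and 0.24.

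Markers of other cell types were at or near 0 or overlapped between the groups for the most part. Summed levels in S34F and WT libraries were 231 to 329 and 216 to 236 CPM for macrophages and monocytes, of which Adgre1 gave most, while C1qa and C1qb had no counts. They were 2.09 to 19.7 and 4.01 to 6.87 CPM for late neutrophils, 4.42 to 8.29 and 1.89 to 6.01 CPM for mast cells and basophils (Tpsb2, Mcpt4 and Fcer1a without counts), and 1.02 to 2.13 and 1.09 to 1.47 CPM for erythroid cells (Hbb-bt without counts). Lymphocyte markers summed to at most 1.03 CPM and fibroblast markers to at most 3.07 CPM. Megakaryocyte markers summed to 750 to 876 CPM in S34F and 588 to 619 CPM in WT, nearly all from Itga2b, and Pf4 was at 2.74-fold (edgeR adjusted p = 0.0699, past the test in 3 of 17 alternatives, with 0.00204 without WT replicate 1 and 0.260 without WT replicate 2). Cd14, S100a9, Mcpt8, Klf1 and Col1a1, the genes with the smallest p of their lists, did not pass (adjusted p = 0.193, 0.395, 0.314, 0.562 and 0.660). The 3 tested macrophage and monocyte genes all had positive log2 fold changes, with a median of 1.44, and the groups of each overlapped. Cd14 was at 4.22-fold. Csf1r, named after its values were seen, was at 2.72-fold (edgeR adjusted p = 0.217). The progenitor transcription factor gene Spi1 rose 1.51-fold (adjusted p = 0.0491), a call lost in 10 of 17 alternatives, among them library totals alone (adjusted p = 0.0575). The other tested progenitor genes did not pass, with log2 fold changes of 0.58 for Ctsg, 0.28 for Mpo, -0.39 for Myb and -0.40 for Prtn3. In bulk RNA, fewer cells of a type and less RNA per cell cannot be told apart, and the part of these genes in the values of Pim1 and Id1 was not tested.

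Across the 6 libraries, the genes whose log2 levels followed Cish most closely were Dhdds (Pearson's r 0.998), St3gal4 (0.996) and Lig1 (0.990), out of 9831 candidates averaging 2 CPM or more. Those closest to Pim1 were Aspscr1 (0.999), Rnd1 (0.996) and Edem2 (0.993). These values describe 6 libraries that share their preparation, and they were picked as the highest of all candidates.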

How the data were processed

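Messenger RNA of 6 libraries of 32D cells was counted per gene. The deposited table of the authors holds unnormalised counts, as whole numbers, for Ensembl genes in 1 column per library, and columns were matched to samples by name. Reads were processed with HISAT2 and featureCounts on mm10, per the submitters' processing notes. No version, strand setting, annotation release or rule for multiply matching reads is given in the sources used here, so reads of similar or overlapping genes may be shared. The library kit was directional, per the labels' protocols. Symbols are those of the table, with 27 that a spreadsheet had turned into dates restored by gene ID. Coordinates, lengths and GC content came from GENCODE release M21 (mm10), which held 54495 of 54532 gene IDs.

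Counts were fitted over the whole table with edgeR 4.0.16 in R 4.3.3: filterByExpr, TMM factors, a robust quasi-likelihood F test (two-sided) with genotype as the only term and Benjamini-Hochberg adjustment at 0.05. SE is the log2 fold change over the root of F. Intervals are 95% intervals from the fit's t distribution. The members, 14 further lists with 131 entries and the tests were chosen with earlier results of these data known. A few list genes are not reported here and were left out of the lists. Named genes are the 10 members, from each list up to 4 that passed or else the one with the smallest p, and the 3 closest to Cish and to Pim1 by Pearson's r of log2(CPM + 0.5). Alternatives were other scalings (RLE, upper quartile, library totals), no filter or a floor of 1 CPM in 3 libraries, limma-voom (limma 3.58.1), DESeq2 1.42.0, the replicate number as a block, WT replicates 2 and 3 summed, offsets for GC content (loess, span 0.5), and each library left out. The procedure was tested on simulated counts. Motifs were searched in RefSeq promoter windows of GRCm38.p6. Figures were drawn with matplotlib 3.10.9.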

Additional observations from a re-analysis of the deposited data

How the results depend on the processing

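Over all genes tested, 293 changed. The count was 763 without a count filter, 1080 with DESeq2, 1418 with the replicate block, 1018 with the replicate block and GC offsets, 163 with GC offsets and 20 with WT replicates 2 and 3 summed, and between 19 (without WT replicate 2) and 1177 (without WT replicate 1) with 1 library left out. It was 20, 337 and 50 without S34F replicates 1 to 3 and 22 without WT replicate 3. Of the 10 members, 0 changed in the main analysis, which called 2.18% of all genes. Without a count filter it was 2, Pim1 and Id1 (3.12% of all genes), as it was with DESeq2 (8.64%). It was also these 2 with the replicate block (10.5%) and with the replicate block and GC offsets (7.57%). With 1 library left out it was 2 without WT replicate 1 (8.51%) and 1, Id1, without S34F replicate 2 (2.46%). It was 0 without any other library (0.138% to 0.362%). Same-numbered libraries deviated together with correlations of 0.368, 0.181 and 0.0885, and differently numbered ones with -0.304 to 0.168. WT replicate 3 correlated better with S34F replicate 2 (0.168) than with S34F replicate 3. WT replicates 2 and 3 were nearly alike, so their correlations are not separate and this check cannot decide whether numbers mark pairs. The labels describe no pairing, so the main fit had no block. With the replicate block, edgeR adjusted p-values were 0.0123 for Pim1 and 0.002 for Id1. With GC offsets the log2 fold changes were 0.54 for Pim1 and 0.78 for Id1 (edgeR adjusted p = 0.152 and 0.0767). With the replicate block and GC offsets they were 0.55 and 0.76 (edgeR adjusted p = 0.0242 and 0.00488).

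Signs turned for members near 0. Cish had log2 fold changes of -0.0017 with upper-quartile factors, -0.00066 with library totals alone, -0.060 with WT replicates 2 and 3 summed, -0.063 with GC offsets and -0.056 with the replicate block and GC offsets. Stat5b had 0.0060 with WT replicates 2 and 3 summed. Socs2 had 0.0079 with GC offsets and 0.0087 with the replicate block and GC offsets. With 1 library left out, values ran from -0.064 to 0.224 for Cish, -0.240 to 0.0983 for Stat5b, -0.433 to 0.0924 for Socs1, -0.137 to 0.0043 for Socs2, -0.528 to 0.262 for Socs3 and -0.116 to 2.01 for S100a9. The causes were not tested.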
